A study of Mus musculus with 2 samples.

Results

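The cytosolic ribosomal protein genes code for the protein parts of the ribosomes that translate nuclear mRNA. They were taken by symbol, as every listed gene named Rpl or Rps plus digits with an optional paralog suffix, together with Rplp0, Rplp1, Rplp2 and Rpsa. Names ending in -ps and the S6 kinases were left out. The rule reads symbols and no measured value, although the family was picked for study with earlier results of these data known. It gave 84 of 25668 listed genes, 32 of the small (40S) and 52 of the large (60S) subunit. Of these, 81 had a mean of at least 1 TPM over both libraries and are called measured below, against 11228 genes measured in all. TPM is a length-scaled abundance that sums to the same total in each library.

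RNA came from mouse fallopian tube (oviduct) epithelial organoids, which are small epithelial structures grown in culture. The Trp53 KO library was made from organoids in which Trp53, the gene of the tumour suppressor p53, had been knocked out. The WT library was made from normal organoids of a mouse with the Gt(ROSA)26Sortm1(CAG-cas9*,-EGFP)Fezh allele, in which the CAG promoter drives Cas9 and EGFP from the Rosa26 locus. Both carried the label Conditioned medium. The labels do not name the guide, the number of clones behind the knockout, the mouse its organoids came from or the age of the animals. With 1 library per genotype there was no replicate and no test, so each difference compares these 2 libraries and not the genotypes. Intervals on ratios cover counting error at most.

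Trp53 itself was 2.42 TPM in the Trp53 KO library and 83.2 TPM in the WT library. Depth, recovered from the TPM as described under processing, was 30621242 reads in the Trp53 KO library and 110305151 in the WT library. All 6 epithelial markers were present, with a summed level of 14100 TPM in the Trp53 KO library and 9270 TPM in the WT library. The higher sum came from Krt19, at 8176 TPM in the Trp53 KO library and 2313 TPM in the WT library. Krt7 was also higher, at 1167 TPM in the Trp53 KO library and 877 TPM in the WT library, while Epcam, Cdh1, Krt8 and Krt18 were each lower in the Trp53 KO library. The 5 markers of multiciliated cells summed to 60.2 TPM in the Trp53 KO library and 186 TPM in the WT library, with Ccdc153, Tppp3 and Dynlrb2 at 0 in the Trp53 KO library, and the 3 oviduct secretory markers summed to 54.1 TPM in the Trp53 KO library and 87.6 TPM in the WT library. Of these, Pax8 was 46.0 TPM in the Trp53 KO library and 44.8 TPM in the WT library, Wt1 was 7.85 TPM in the Trp53 KO library and 35.3 TPM in the WT library, and Ovgp1 was 0.192 TPM in the Trp53 KO library and 7.44 TPM in the WT library. All 7 stromal and muscle markers were at 0 in the Trp53 KO library and summed to 0.0666 TPM in the WT library. Of the 4 immune markers, Cd3e and Cd79a were at 0 in both libraries, Ptprc was 0.0110 TPM in the Trp53 KO library and 0.0886 TPM in the WT library, and Cd68, which other cells can also express, was 15.97 TPM in the Trp53 KO library and 25.5 TPM in the WT library. Endothelial markers summed to under 0.1 TPM in each library, and red cell markers were at 0 in both. In bulk RNA, fewer cells of a type and less RNA per cell cannot be told apart, and the part that the cells behind these markers have in the differences below was not tested.

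A ribosome joins one copy of nearly every ribosomal protein to its ribosomal RNAs, and the cell makes the proteins in matched amounts. In mammals their mRNAs begin with a C followed by a run of pyrimidines, the 5′ terminal oligopyrimidine (TOP) motif, through which mTORC1 signalling and the binding protein Larp1 control their translation. Some ribosomal proteins that are not built into ribosomes bind Mdm2, the ubiquitin ligase of p53, so the family is a known sensor that stabilises p53 when ribosome assembly fails.

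The start-site sequences of 10 members that the results turn on are shown first, since the TOP motif begins at the transcription start. They are the members of chromosomes 2 and 4 that have an entry, which were between 1.92-fold and 2.74-fold higher in the Trp53 KO library, and the paralogs Rps27l and Rpl22l1 with Rps27, the partner of Rps27l. Each line gives 20 bases before and 10 bases after the start in RefSeq's promoter table (GRCm38.p6), 5′ to 3′ on the gene's strand, at the first listed start where a gene has 2 (Rpl22, Rps21 and Rps27l). Capitals mark the longest run of C and T in the window. The windows lie at chr4:86857358-86857387 (minus strand) for Rps6, chr4:136053384-136053413 (minus) for Rpl11, chr4:152325706-152325735 (plus) for Rpl22, chr2:180257359-180257388 (plus) for Rps21, chr2:39005122-39005151 (minus) for Rpl35, chr2:32961692-32961721 (plus) for Rpl12, chr2:26910787-26910816 (plus) for Rpl7a, chr9:66946066-66946095 (plus) for Rps27l, chr3:90213639-90213668 (minus) for Rps27 and chr3:28805488-28805517 (plus) for Rpl22l1.
Rps6: gggttaagcggaagtcgggCCTCTTTTTCg
Rpl11: gCCTCCTgacccataaggccacggggccgg
Rpl22: ccgaCTTCgccctgggaaaagcaatagctg
Rps21: gcacttaccgaggacccgCCCTCCTgccca
Rpl35: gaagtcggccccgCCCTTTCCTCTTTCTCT
Rpl12: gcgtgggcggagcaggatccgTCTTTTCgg
Rpl7a: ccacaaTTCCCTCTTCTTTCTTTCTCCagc
Rps27l: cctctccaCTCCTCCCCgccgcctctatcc
Rps27: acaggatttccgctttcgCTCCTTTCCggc
Rpl22l1: cgtgcgtgcggcgcaagcccgTTCTCTTCC

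In Rps6, Rps21, Rpl35 and Rps27 the run of pyrimidines crosses the annotated start. In Rpl12 and Rpl22l1 it begins at the second base of the transcript, and in Rpl7a it begins 14 bases before the start and runs through it. The longest run of Rpl11, Rpl22 and Rps27l lies before the start. RefSeq's table held 64 of the 84 members, with 76 start sites. A C at the first base followed by at least 4 pyrimidines stood at 13 of these sites (17.1%), against 2.47% of the other start sites and 2.51% of all 32851. In the 250 bases before the start, on either strand, CCGGAA, the core of ETS family sites, was at 35.5% of member sites and 11.98% of the others. GGGCGG, the core of Sp1 sites, was at 48.7% of member sites and 32.7% of the others. CACGTG, the E-box that Myc binds, was at 9.21% of member sites and 6.01% of the others, and TATAAA at 5.26% of member sites and 12.4% of the others. None of these motifs contains another, and base composition was not matched. The share over all start sites was 12.03% for CCGGAA, 32.7% for GGGCGG, 6.02% for CACGTG and 12.4% for TATAAA. The 13 measured members with a C and 4 pyrimidines at a start had a median difference of 0.53 between the libraries, and the other 48 measured members with an entry 0.43. Rps6, Rpl35 and Rps21, of chromosomes 2 and 4, are among the 13, and Rpl11, Rpl22, Rpl12 and Rpl7a among the 48. The part that these chromosomes have in the gap was not tested. Because the rule depends on the annotated first base, the 48 are not shown to lack a TOP motif.

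As a family, the ribosomal protein genes took a larger part of the RNA in the Trp53 KO library. They summed to 26.6% of all TPM there and 18.5% in the WT library, a ratio of 1.43. The small-subunit genes held 11.2% in the Trp53 KO library and 7.78% in the WT library, and the large-subunit genes 15.4% in the Trp53 KO library and 10.7% in the WT library. By reads, without division by length, the members held 15.1% in the Trp53 KO library and 9.74% in the WT library. Since TPM has a fixed sum, the genes outside the family together were 734243 TPM in the Trp53 KO library and 814793 TPM in the WT library, a ratio of 0.901. The 13 mitochondrially encoded genes held 5.92% in the Trp53 KO library and 8.72% in the WT library. Of the 100 genes with the highest TPM, 56 were members in the Trp53 KO library and 48 in the WT library.

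Differences are given as log2(TPM + 1) in the Trp53 KO library minus that in the WT library, which understates the change of low genes. The 81 measured members had a median difference of 0.44 (quartiles 0.30 and 0.62), against −0.17 (quartiles −0.65 and 0.30) for all genes measured. The subunits did not stand apart, with a median of 0.45 over 32 small-subunit genes and 0.43 over 49 large-subunit genes. Among the members, 80 of 81 were above 0, against 39.9% of all genes, and 70 of 81 were after quantile normalization. After that normalization the median of all genes was 0.02. Nearly all members are high genes, and the 612 genes outside the family with a mean of at least 200 TPM had a median of 0.06. Of these 612 genes, 336 were above 0 and 12.3% were at least 2-fold higher. At least 2-fold higher were 7 members (8.64%), against 8.35% of all genes, so that share was near the background. None was at least 2-fold lower, against 15.3% of all genes. At 1.5-fold, 25 members were higher and 1 lower, against 15.9% higher and 27.8% lower of all genes.

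**Figure D1:**
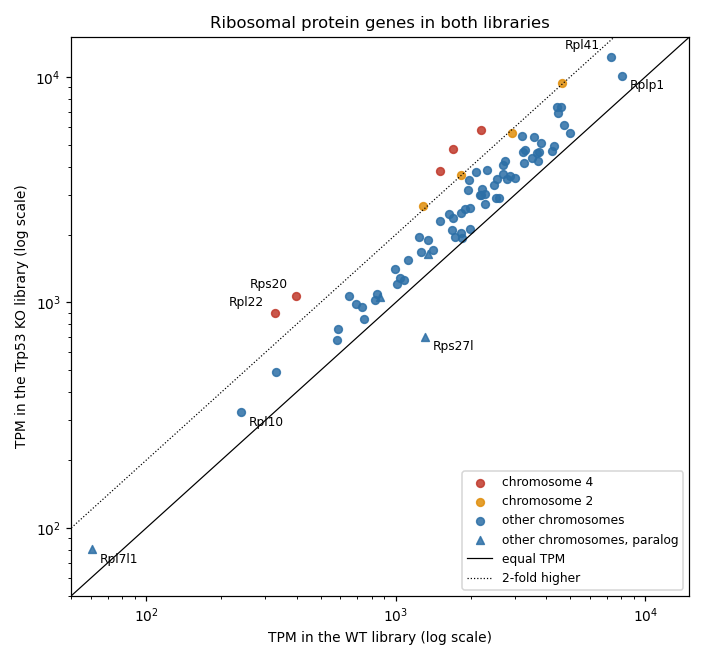
TPM of each measured member in the WT library (horizontal, log scale) and in the Trp53 KO library (vertical, log scale), with the line of equal TPM and that of 2-fold higher TPM in the Trp53 KO library. Of 81 members 80 lie above the line of equal TPM on these values (70 of 81 after quantile normalization), and the 5 genes of chromosome 4 lie above the dotted line.

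The 7 members past 2-fold lie on chromosomes 4 and 2, and all 5 members of chromosome 4 were among them. These chromosomes were set apart because earlier results of the same libraries had higher levels of genes on them. The split is therefore a description and not an independent finding. Rps6, the small-subunit protein that S6 kinases phosphorylate downstream of mTORC1, was 5828 TPM in the Trp53 KO library and 2202 TPM in the WT library (2.65-fold, 95% interval 2.62 to 2.67). Rps20, of the small-subunit head, was 1068 TPM in the Trp53 KO library and 397 TPM in the WT library (2.69-fold). On that chromosome the ratios of the members thus lay close together. Rpl22, a large-subunit protein that is dispensable for bulk translation, was 894 TPM in the Trp53 KO library and 327 TPM in the WT library (2.74-fold). Rpl11, which binds 5S ribosomal RNA and, when free, Mdm2, was 3809.6 TPM in the Trp53 KO library and 1499 TPM in the WT library (2.54-fold).

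On chromosome 2 all 4 members stood near 2-fold. Rpl35, at the peptide exit tunnel, was 2679.7 TPM in the Trp53 KO library and 1281 TPM in the WT library (2.09-fold, interval 2.07 to 2.12). Rps21, of the small subunit, was 9354 TPM in the Trp53 KO library and 4625.5 TPM in the WT library (2.02-fold). Rpl12, at the base of the stalk, was 3655 TPM in the Trp53 KO library and 1829 TPM in the WT library, just under 2-fold at 1.998-fold. Rpl7a, of the large subunit, was 5624 TPM in the Trp53 KO library and 2933 TPM in the WT library (1.92-fold). The median difference was 1.42 over the 5 members of chromosome 4 and 1.01 over the 4 of chromosome 2. Off these chromosomes it was 0.40 over 72 members (0.18 after quantile normalization). None of the 72 was 2-fold higher or lower, against 6.56% higher and 16.4% lower of all measured genes there. Rpl14 and Rpl10a passed 2-fold higher after rescaling by the median ratio, and after quantile normalization Rpl41 was 2-fold higher and Rps27l 2-fold lower.

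**Figure D2:**
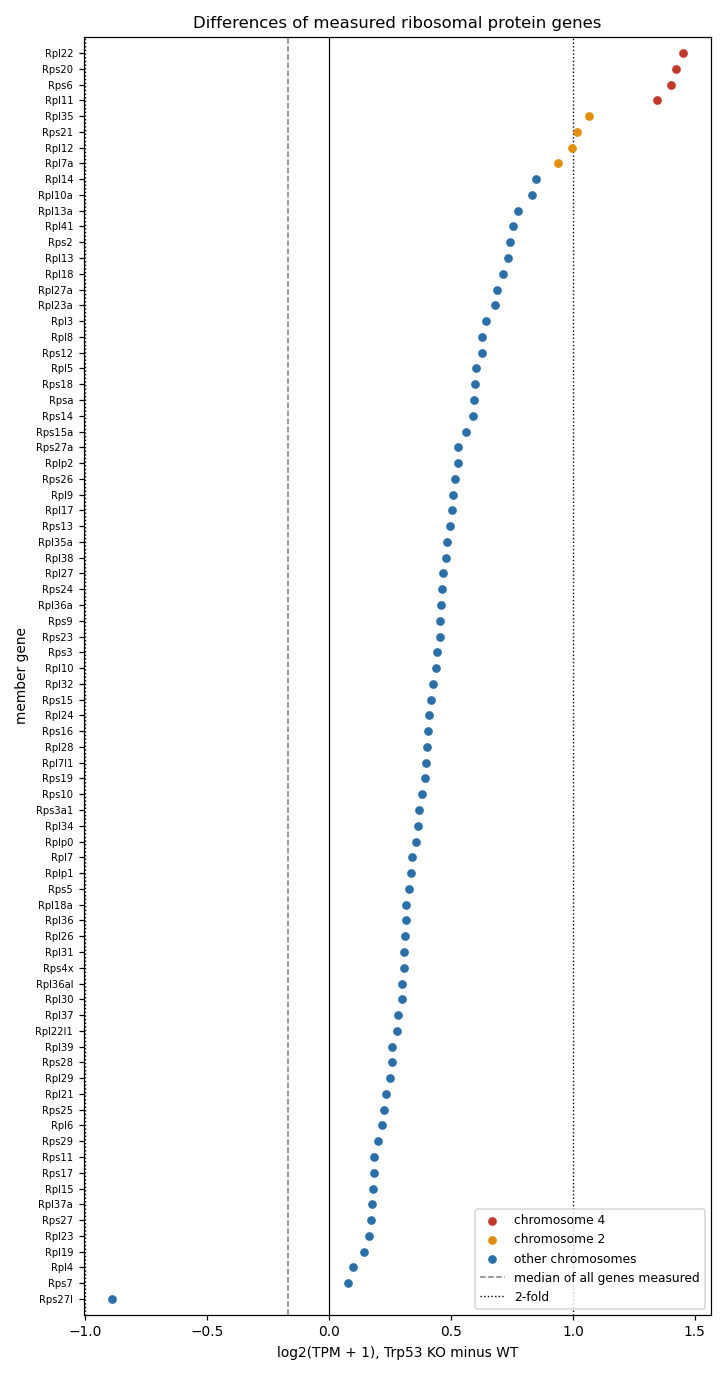
Difference in log2(TPM + 1), Trp53 KO minus WT, of 80 of the 81 measured members, ordered by size and coloured by chromosome, with the median of all genes measured as a dashed line and 2-fold differences as dotted lines. The members of chromosomes 4 and 2 are the highest of those drawn, and Rps27l is the only member below 0 on these values (10 members of the 81 are below 0 after quantile normalization).

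Other genes of these chromosomes differed too. Outside the family, 675 measured genes of chromosome 4 had a median difference of 0.62 and 28.3% were at least 2-fold higher, and 895 of chromosome 2 had a median of 0.19 with 11.8% higher. All measured genes off these chromosomes had a median of −0.24. Set against the other genes of its own chromosome, the members' median was 0.80 higher on chromosome 4 and 0.81 higher on chromosome 2, and it was higher by 0.50 (chromosome 12) to 0.81 on all 19 chromosomes that hold a member. The same comparison was made with the nearest genes, up to 10 on each side in RefSeq's order. The 9 members of chromosomes 2 and 4 exceeded the median of their neighbours by a median of 0.75 (range 0.65 to 1.45), and the 68 core members elsewhere, which are those with no paralog suffix, by 0.70 (range 0.20 to 1.77). Rps20 had 13 measured neighbours, with a median difference of −0.03 against its own 1.42. All these gaps are on the deposited values and were not taken after quantile normalization. Under that setting the members off chromosomes 2 and 4 had a median of 0.18 and all genes 0.02. The part that the shift of the whole chromosome has in the ratios of the members of chromosomes 2 and 4 was not tested.

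**Figure D3:**
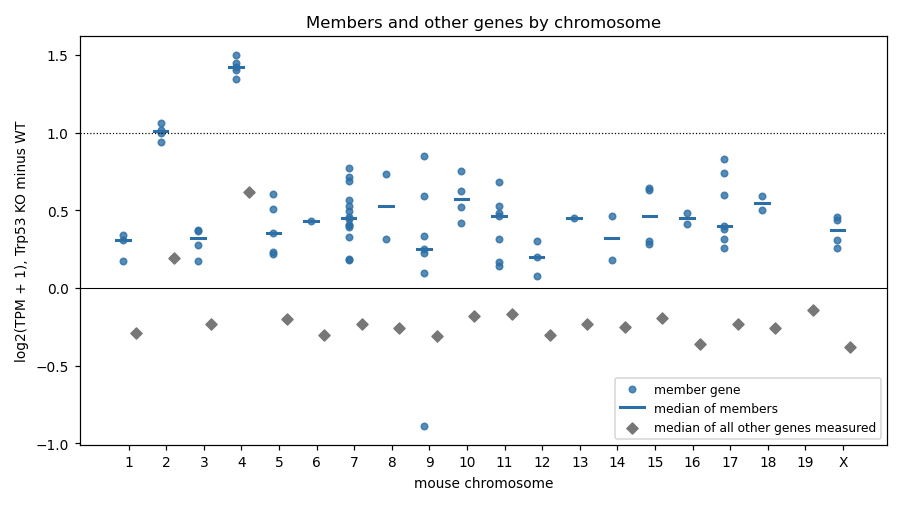
Difference in log2(TPM + 1), Trp53 KO minus WT, by mouse chromosome, with each measured member as a point, the members' median as a bar, and the median of all other measured genes of that chromosome as a diamond. The bar stands above the diamond on all 19 chromosomes with a member, by 0.50 to 0.81, and both are highest on chromosome 4. These gaps were not taken after quantile normalization, where 10 of the 81 members are below 0.

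The other members differed by less. All 68 core members off chromosomes 2 and 4 were above 0, between 0.08 and 0.85 with a median of 0.41, and 10 of them were at or below 0 after quantile normalization. Between 1.5- and 2-fold higher were 16 of them. Highest among these were Rpl14, at 3775 TPM in the Trp53 KO library and 2098 TPM in the WT library (1.80-fold), and Rpl10a, at 3492 TPM in the Trp53 KO library and 1961 TPM in the WT library (1.78-fold). Rpl13a, which in human cells also silences certain inflammatory mRNAs, was 5467 TPM in the Trp53 KO library and 3198 TPM in the WT library. The 4 members of the X chromosome had a median of 0.37, among them Rps4x, at 4655 TPM in the Trp53 KO library and 3766 TPM in the WT library.

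The most abundant members were mostly short genes. Rpl41, which encodes a very small basic peptide, was highest in the Trp53 KO library, at 12269.5 TPM, against 7271 TPM in the WT library. Rplp1, of the stalk, was 10143.5 TPM in the Trp53 KO library and 8041 TPM in the WT library, where it was the highest member. Next in the Trp53 KO library came Rps21, Rpl23a (7377 TPM, against 4598 TPM in the WT library) and Rpl13 (7343 TPM, against 4421 TPM in the WT library). The lowest core member was Rpl10, the late-joining protein near the peptidyl transferase centre, with 326 TPM in the Trp53 KO library and 240.3 TPM in the WT library. Most of the summed TPM of Rpl10 and a near-identical copy stood on the copy, as described below. Over the 77 core members the highest level was 37.7 times the lowest in the Trp53 KO library and 33.5 times in the WT library. Without Rpl10 it was 25.1 times in the Trp53 KO library and 24.6 times in the WT library.

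The order of the members was nearly the same in both libraries. Across the 77 core members log2 TPM in the Trp53 KO and WT libraries had a Spearman correlation of 0.927, a description across genes that share the same gene lengths. TPM was lower in longer genes, with a Spearman correlation of −0.65 in the Trp53 KO library and −0.69 in the WT library, while WT reads hardly followed length (0.09). TPM is reads divided by this length, so the terms are not independent. The difference between the libraries hardly followed length (0.16) or WT level (0.03) over the 68 core members off chromosomes 2 and 4.

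**Figure D4:**
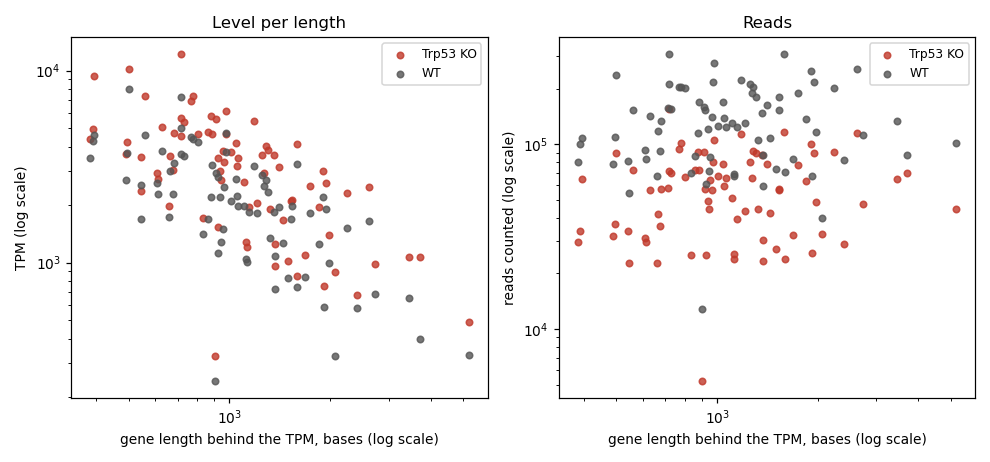
Gene length in bases recovered from the TPM (horizontal, log scale) against TPM (left panel, vertical, log scale) and reads counted (right panel, vertical, log scale), with 1 point per core member and library. TPM is lower in longer genes in both libraries, with a Spearman correlation of −0.65 in the Trp53 KO library and −0.69 in the WT library, while WT reads against length give 0.09.

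By role, the acidic stalk proteins, which recruit translation factors to the ribosome, were all higher by less than 1.5-fold. Rplp0, its anchor, was 4161 TPM in the Trp53 KO library and 3253 TPM in the WT library, and Rplp2 was 3195 TPM in the Trp53 KO library and 2215 TPM in the WT library. The 11 members at the peptide exit tunnel had a median difference of 0.31, and the 9 measured members around the decoding site and mRNA channel had 0.45. Rpsa, the small-subunit protein also known as the laminin receptor, was 2471 TPM in the Trp53 KO library and 1638 TPM in the WT library. The 19 genes whose human forms are mutated in Diamond-Blackfan anaemia, an inherited failure of red cell production, had a median of 0.39. Of these, 2 of 19 were 2-fold higher, a share near the 8.35% of all genes.

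A list of 7 members reported to bind Mdm2, which is not complete, had a median of 0.17 and spread from −0.89 (Rps27l) to 1.34 (Rpl11). Rpl5, which with Rpl11 and 5S RNA forms the particle that holds Mdm2, was 2291 TPM in the Trp53 KO library and 1509 TPM in the WT library (1.52-fold). Rpl23 was 2040.3 TPM in the Trp53 KO library and 1819.9 TPM in the WT library, and Rpl26 was 4582 TPM in the Trp53 KO library and 3691 TPM in the WT library. Rps7, also an Mdm2 binder, had the smallest difference of the core members, with 1937.5 TPM in the Trp53 KO library and 1834 TPM in the WT library (1.06-fold). Rpl4, at the tunnel's constriction, came next with 2112 TPM in the Trp53 KO library and 1975 TPM in the WT library (1.07-fold). Both were below 0 after quantile normalization. Also near 1 were Rpl19, at 4672 TPM in the Trp53 KO library and 4235 TPM in the WT library, Rpl37a, at 5653 TPM in the Trp53 KO library and 5006 TPM in the WT library, and Rpl15, at 847 TPM in the Trp53 KO library and 747 TPM in the WT library. These are large-subunit proteins, and Rpl19 was at 0.00 after quantile normalization.

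Rps27l was the only measured member with a lower level in the Trp53 KO library on the deposited values. It is a paralog of Rps27 whose human form is induced by p53. Rps27l was 706 TPM in the Trp53 KO library and 1308 TPM in the WT library (0.54-fold, 95% interval 0.526 to 0.553), from 7239 reads in the Trp53 KO library and 45154 in the WT library. Rps27 itself, which also binds Mdm2, was 2915 TPM in the Trp53 KO library and 2586 TPM in the WT library (1.13-fold). The level of Rps27l over that of Rps27 was 0.242 in the Trp53 KO library and 0.506 in the WT library, and their sum was 3621 TPM in the Trp53 KO library and 3894 TPM in the WT library.

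Rpl22l1, the paralog that Rpl22 represses in mouse cells, was 1638 TPM in the Trp53 KO library and 1351 TPM in the WT library. The level of Rpl22l1, on chromosome 3, over that of Rpl22, on chromosome 4, was 1.83 in the Trp53 KO library and 4.13 in the WT library. Together they made 2532 TPM in the Trp53 KO library and 1678 TPM in the WT library. Rpl36al was 1061 TPM in the Trp53 KO library and 862 TPM in the WT library. For Rpl36al over Rpl36a the ratio was 0.287 in the Trp53 KO library and 0.320 in the WT library. Rpl7l1, a relative of Rpl7, was 80.3 TPM in the Trp53 KO library and 60.6 TPM in the WT library, and its level over that of Rpl7 was 0.0222 in the Trp53 KO library and 0.0212 in the WT library. In both of these pairs the ratio differed less between the libraries than in the pairs of Rps27l and Rpl22l1. Paralogs of restricted tissues were at or near 0. Rpl10l and Rpl39l, known from testis, were listed at 0 in both libraries, and Rpl3l, known from heart and skeletal muscle, was 0.344 TPM in the Trp53 KO library and 0.286 TPM in the WT library, from 10 reads in the Trp53 KO library and 28 in the WT library, a depth at which no difference was detectable (ratio 1.20, 95% interval 0.521 to 2.55).

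Some members share reads with near-identical copies listed under other names, and how the counting split such reads is not given in the sources used here. Of 12 listed copies with at least 95% identity over at least 70% of a member's coding sequence, 4 held more than 2% of the sum of member and copy. Rpl10-ps3 was 3075 TPM in the Trp53 KO library and 2435.5 TPM in the WT library, 90.4% of Rpl10 and copy together in the Trp53 KO library and 91.0% in the WT library. Their sum was 1.27-fold higher. Gm2000, a copy of Rpl35, was 3484 TPM in the Trp53 KO library and 1653 TPM in the WT library, and Rpl35 with it was 2.10-fold higher. Rpl9-ps6 held 34.6% of Rpl9 and copy in the Trp53 KO library and 25.6% in the WT library, with a summed ratio of 1.62. Rps27rt held 7.14% of Rps27 and copy in the Trp53 KO library and 4.32% in the WT library. The levels of Rpl10, Rpl35 and Rpl9 alone are therefore uncertain. The search covered only listed genes outside the family. Sharing of reads between members, or with copies that are not listed, was not examined, so other members may be affected too.

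Genes outside the naming rule that also belong to the ribosome were higher too. Fau, whose product carries small-subunit protein S30, was 2840.4 TPM in the Trp53 KO library and 1864 TPM in the WT library (1.52-fold). Rack1, a scaffold on the small subunit, was 2818 TPM in the Trp53 KO library and 2106 TPM in the WT library (1.34-fold).

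Lists of other translation genes, which share some genes (such as Eif3a, Eef1a1 and Npm1), had medians of 0.18 or less on the deposited values. After quantile normalization that order did not hold, since the ribosome assembly genes had a median of 0.26, against 0.24 over the members and 0.18 over the members off chromosomes 2 and 4, and elongation factors and mitochondrial ribosomal proteins had 0.18. For each list the count past 2-fold stands against 8.35% higher and 15.3% lower of all genes. The 24 measured genes with TOP mRNAs outside the family had a median of 0.16, with 0 higher and 1 lower at 2-fold. The elongation factor Eef1a1 was 10330.2 TPM in the Trp53 KO library and 9827 TPM in the WT library, and Tpt1, translationally controlled tumour protein, was 3748 TPM in the Trp53 KO library and 4497 TPM in the WT library. The 1 lower gene was Eif4a2, a helicase of initiation, at 149 TPM in the Trp53 KO library and 329 TPM in the WT library. Of 36 initiation factors 4 were higher, a share near that of all genes, and 1, again Eif4a2, was lower (median 0.15). All 4 lie on chromosome 2 or 4, among them Eif3i, of the eIF3 complex, at 569 TPM in the Trp53 KO library and 218 TPM in the WT library, and Eif6, which keeps free large subunits apart from small ones, at 367 TPM in the Trp53 KO library and 156 TPM in the WT library. The 11 elongation and termination factors had a median of 0.18 and none past 2-fold.

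Ribosome assembly genes had 5 of 74 higher, near the 8.35% of all genes, and 0 lower, against 15.3% (median 0.15). Nop56, of the box C/D particles that modify ribosomal RNA, was 249 TPM in the Trp53 KO library and 109 TPM in the WT library, and Noc2l was 90.6 TPM in the Trp53 KO library and 26.4 TPM in the WT library, on chromosomes 2 and 4. Only Tcof1, a nucleolar factor of ribosomal RNA transcription, at 29.97 TPM in the Trp53 KO library and 13.8 TPM in the WT library, lay elsewhere among the 5. RNA polymerase I and III genes had 2 of 32 higher and 0 lower (median −0.11, which was above 0 under 3 of the rescalings). The 75 mitochondrial ribosomal protein genes, which build the separate ribosome of mitochondria, had 3 higher, all on chromosome 2 or 4, and 0 lower, with a median of 0.11 and of 0.04 off those chromosomes. Genes of ribosome quality control had 0 of 24 past 2-fold (median −0.19, above 0 after quantile normalization).

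**Figure D5:**
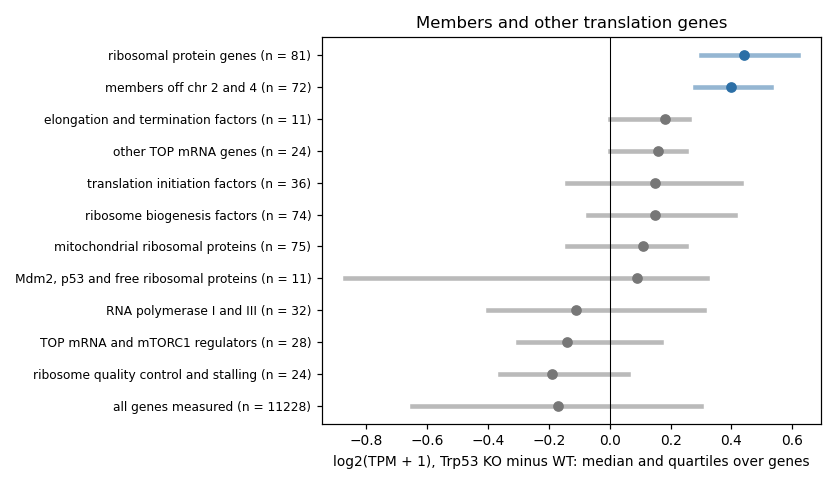
Median (point) and quartiles (line) of the difference in log2(TPM + 1), Trp53 KO minus WT, over the measured genes of each list, with the number of genes in brackets. Some lists share genes. The measured members have a median of 0.44, and of 0.40 off chromosomes 2 and 4, against 0.18 or less in the lists drawn and −0.17 over all genes (after quantile normalization the ribosome biogenesis median is 0.26 and that of the members 0.24, 3 of the lists change sign under a rescaling, and 9 single members that are above 0 here are below it).

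Regulators of TOP mRNAs and mTORC1 had 1 of 28 measured genes higher and 2 lower (median −0.14, at or above 0 under 3 rescalings). Eif4ebp1, the mTORC1 substrate that holds back cap-dependent translation, was 163 TPM in the Trp53 KO library and 44.2 TPM in the WT library. Mycn, a Myc family factor, was 0.101 TPM in the Trp53 KO library and 58.9 TPM in the WT library, while Myc, which drives ribosome production, was 77.7 TPM in the Trp53 KO library and 49.6 TPM in the WT library. Mxd4, which antagonises Myc at E-boxes, was 19.9 TPM in the Trp53 KO library and 76.8 TPM in the WT library. Larp1 was 88.3 TPM in the Trp53 KO library and 83.5 TPM in the WT library. In the list of Mdm2, p53 and free ribosomal protein signalling, 1 of 11 genes was higher and 2 lower (median 0.09). The lower genes were Trp53, the knocked-out gene itself, and Cdkn1a, the p53 target p21, at 38.1 TPM in the Trp53 KO library and 203 TPM in the WT library. Cdkn2a, the higher gene, whose Arf product binds Mdm2, was 361 TPM in the Trp53 KO library and 74.6 TPM in the WT library, and lies on chromosome 4. Mdm2, a p53 target as well as its ligase, was 23.9 TPM in the Trp53 KO library and 46.6 TPM in the WT library, which did not reach 2-fold on this scale.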

How the data were processed

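RNA was measured in 2 libraries, 1 Trp53 KO and 1 WT, grouped by the submitters' genotype labels. Total RNA was extracted with an RNeasy Plus kit, and NEBNext Ultra II Directional libraries were sequenced paired-end on a NextSeq2000, as the labels' protocols state. The submitters' processing notes name GRCm39 as the build. How reads were aligned and counted, and with which annotation, is not given in the sources used here. TPM were deposited by the authors for 25668 gene symbols per library.

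The members, by a rule on symbols alone, and the lists were chosen with earlier results of these data known. The same holds for the split by chromosome, which followed higher levels of genes in those earlier results. Differences are log2(TPM + 1), Trp53 KO minus WT, over genes averaging at least 1 TPM, and a gene counts as higher or lower at 2-fold. With 1 library per group no test was run.

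Among 1676 low genes, the ratio of the libraries' TPM equalled 1 constant times a fraction of small whole numbers in 45.2%, against 0% for the median constant tried. That constant gave reads up to a common factor. At 1000 bases 1 read was worth 0.0565 TPM in the Trp53 KO library and 0.0168 TPM in the WT library. Of 13626 genes above 0 in both libraries 98.6% came out whole within 0.001, over lengths of 150 to 11999 bases, tried freely. The factor was set with GENCODE M21 transcript lengths, and 14 members' lengths are multiples of the shortest that fits, of which Rps15a's is least sure. The reads may be fragments. On data simulated from genes already recovered, with each gene's true length supplied, 3529 of 3559 genes had their reads recovered (99.2%). That share does not measure how often the lengths found here are right. Intervals are exact Clopper-Pearson intervals at 95% and cover counting error at most, because each genotype has 1 library. No molecular identifiers mark PCR duplicates and reads are known up to a common factor, so the intervals may be too narrow.

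Copies were found with blastn 2.17.0 against GENCODE M21 transcripts. Chromosomes and neighbours came from RefSeq's gene table, used for names and order, and placed 99.3% of measured genes. Calculations used Python 3.11.15, pandas 2.3.3, numpy 2.4.6 and scipy 1.17.1.

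Named members were those 2-fold different, the 8 highest and 8 lowest differences at a mean TPM of at least 5, paralogs, Mdm2 binders and stalk members fixed by name, and the 5 highest TPM. Up to 4 genes per related list were named by difference. Others outside these rules were chosen after their values were seen, among them Eef1a1, Tpt1, Tcof1, Myc, Larp1, Rpl13a, Rpl7a, Rpl14, Rpl10a and Rpl10. Rescaling, quantile normalization, other pseudocounts, a 1.5-fold threshold and leaving out chromosomes 2 and 4 were tried. A few single-gene results are not reported here.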

Additional observations from a re-analysis of the deposited data

How the results depend on the processing

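Rescaling by the median ratio between the libraries, quantile normalization and a total without the members moved the median of all genes by 0.16, 0.19 and 0.13 on the log2 scale. The members' median of 0.44 became 0.61, 0.24 and 0.59 under these, in that order. The median on chromosome 4 became 1.60, 1.33 and 1.57, that on chromosome 2 1.18, 0.84 and 1.16, and that on the other chromosomes 0.58, 0.18 and 0.55. Under the median ratio 11 members were 2-fold higher, at 1.5-fold 25 were higher and 1 lower, without chromosomes 2 and 4 0 were higher, and after quantile normalization 1, Rps27l, was lower. Of the 11, 2 lay off chromosomes 2 and 4. The members' share was 35.7% in the Trp53 KO library and 27.4% in the WT library (ratio 1.30) without mitochondrially encoded genes and the 100 highest other genes, and 22.8% and 16.8% (ratio 1.35) without members of chromosomes 2 and 4. After quantile normalization Rpl4 was −0.09, Rps27 −0.23 and Rps7 −0.06. The RNA polymerase I and III median was 0.05, 0.16 and 0.02 under the 3 rescalings, that of TOP mRNA and mTORC1 regulators 0.03, 0.13 and 0.00, and that of ribosome quality control 0.06 after quantile normalization. The cause was not tested. No paired analysis was possible because each genotype has 1 library, and no replicate could be left out. Depth did not limit the core members, which had at least 5204 reads.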
